A study of Homo sapiens with 3 samples.

Results

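The genes described here set the pace of the G1 phase: the kinases CDK2, CDK4 and CDK6, the inhibitors CDKN1B, CDKN1C, CDKN2A, CDKN2B, CDKN2C and CDKN2D, and RB1, the protein these kinases act on. They were chosen by symbol from the deposited count table. All 10 were found, each as 1 of the 58735 genes in the table. RNA came from RPE-1, an immortalised human cell line of retinal pigment epithelium that carries telomerase, here a derivative with GFP-tagged centrin 2 and a PLK4 gene under a doxycycline-inducible promoter. All 3 libraries, numbered 1 to 3 as in the labels, came from cells given a scramble siRNA with no induction of PLK4, so they form 1 group and no treatment was compared. Nothing in the labels says that they were separate cultures, so p-values measure only the spread between these libraries, which may be technical.

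Cyclin D pairs with CDK4 or CDK6, and cyclin E with CDK2. These kinases phosphorylate the retinoblastoma protein, which then releases E2F transcription factors and lets the cell enter S phase. INK4 proteins (CDKN2A to CDKN2D) bind CDK4 and CDK6, whereas CIP/KIP proteins (CDKN1A, CDKN1B and CDKN1C) bind complexes of cyclins with CDKs, above all those of CDK2. Much of this control acts on proteins, which were not measured here.

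The 3 libraries held from 46625774 to 60040029 counts. CPM below is counts per 1000000 after TMM scaling, which corrects library totals for composition, and RPKM is CPM per kb of all annotated exons of a gene merged (the union of exons). A gene counted as detected at 1 CPM or more in every library. A library with no read of a gene allows up to 3 counts, or 0.0494 to 0.0641 CPM. Of 12 markers of cell identity, 7 were detected. VIM, an intermediate filament gene, was the highest (1518 ± 64.2 RPKM, SD, n = 3) and BEST1, a chloride channel gene of pigment epithelium, the lowest detected (1.03 ± 0.0905). FTH1, on the other strand, covers 14.2% of the exon length of BEST1. Without a stated strand setting, some reads counted for BEST1 may be those of FTH1. The keratin genes KRT8 (92.2 ± 13.2 RPKM) and KRT18 (76.4 ± 12.6) were also detected. So were OTX2 (5.47 ± 0.239) and MITF (3.05 ± 0.253), transcription factor genes of pigment epithelium. The visual cycle genes RPE65 and RLBP1, the pigment genes TYR and DCT and the E-cadherin gene CDH1 were below detection, and TYR and DCT had no counts. TERT, the telomerase gene, varied most among the 7 detected markers, with 4.68, 8.18 and 7.72 CPM in libraries 1, 2 and 3. Of 11 markers of blood, vessel, nerve and liver cells, only PTPRC (0.225 RPKM) and PECAM1 (0.161 RPKM) were detected. CD3E, HBB and RBFOX3 had no counts in any library, and LYZ, CDH5, SYP, GFAP and ALB were below detection. LYZ varied most of the 4 markers that averaged at least 10 counts, with 0.0412, 0.741 and 0.855 CPM. The summed level of the 11 markers was 4.49, 4.21 and 4.32 CPM.

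CDKN2A and CDKN2B lie side by side on chromosome 9 and are close relatives, so their reads could be confused. Of all words of 50 bases in annotated CDKN2B transcripts, 31 of 4051 (0.765%) also occur in CDKN2A, and no word of 100 bases does. The read length is not given in the sources used here, so how many reads this touches was not tested. No word of 50 bases of RB1, CDKN1B, CDKN1C, CDKN2C or CDKN2D occurs in a transcript of another gene. For CDK4, 34.9% of such words also occur in transcripts of TSPAN31, which lies on the other strand and covers 43.2% of the exon length of CDK4. For CDK2 the share is 11.7%, nearly all of it with the antisense gene AC025162.1. For CDKN2A it is 7.17%, of which 6.48% is with the antisense RNA CDKN2B-AS1, which covers 7.88% of its exon length. Without a stated strand setting, reads of CDK4, CDK2 and CDKN2A cannot be told apart from those of these antisense neighbours where they overlap.

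CDKN2A has 2 start sites in RefSeq, an outer one whose first exon leads the ARF transcript, and an inner one whose first exon leads the INK4A transcript. A gene-level count adds both. CDKN1B and CDK6 were highest in the same library as CDKN2A and CDKN2B, as given below, and control in common was not tested. The bases before the outer start (chr9:21995325-21995574) and before the start of CDKN2B (chr9:22009364-22009555) are shown because CDKN2A and CDKN2B were both highest in that library. They are the parts of the 250 bases before each start that no annotated exon of the gene covers, from RefSeq on GRCh38.p14, minus strand, 5′ to 3′, with each CpG in capitals.
CDKN2A outer start: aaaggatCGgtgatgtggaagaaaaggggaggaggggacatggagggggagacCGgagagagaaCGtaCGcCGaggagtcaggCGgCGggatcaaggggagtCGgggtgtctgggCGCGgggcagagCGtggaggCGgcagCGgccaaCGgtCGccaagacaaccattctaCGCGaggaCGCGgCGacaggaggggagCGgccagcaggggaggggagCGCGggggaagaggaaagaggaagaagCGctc
CDKN2B start: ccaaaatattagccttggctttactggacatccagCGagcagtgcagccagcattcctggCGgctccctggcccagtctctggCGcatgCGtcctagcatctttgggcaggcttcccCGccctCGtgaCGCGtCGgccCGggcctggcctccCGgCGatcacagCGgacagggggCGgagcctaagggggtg
The stretch of 250 bases before CDKN2A holds 24 CpG and no GC box (GGGCGG, on either strand), and the stretch of 192 bases before CDKN2B holds 14 CpG and 2 GC boxes. Over whole windows of 300 bases around the start, CpG numbered 28 for the outer start of CDKN2A and 25 for CDKN2B, against a median of 14 over all 35116 RefSeq windows. A GC box was found in 45% of all windows. The E2F words TTTGGCGC, TTTCCCGC, TTTCGCGC and TTTGCCGC, searched on both strands, were in none of the 12 windows of the 8 genes that had one, and in 3.31% of all windows. At that share, most sets of 12 windows would hold none. The only window of RB1 lies around a start at 48476450, inside the gene, which begins at 48303726. Before the starts of CDK4 and CDKN1B and the inner start of CDKN2A, 211, 244 and 241 of the 250 bases are exonic. Before the CDKN2C starts at 50968706 and 50970245, all 250 are. The absence says only that these letters are not in those windows.

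CDK4, the kinase that works with D cyclins, was the most abundant of the 10 genes. CDK4 (ENSG00000135446, chromosome 12, 57747727 to 57756013) had 204, 234 and 226 CPM in libraries 1, 2 and 3 (70.0 ± 4.88 RPKM, SD, n = 3). CDK2 (ENSG00000123374, chromosome 12, 55966769 to 55972784), the partner of E and A cyclins, had 133, 158 and 164 CPM (38.9 ± 4.24 RPKM). Both were lowest in library 1. CDK6 (ENSG00000105810, chromosome 7, 92604921 to 92836594), the other partner of D cyclins, had 31.5, 26.3 and 31.0 CPM (2.41 ± 0.232 RPKM) and was lowest in library 2.

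Per kb of exon, the log2 ratio of CDK4 to CDK6 was 4.65, 5.11 and 4.82 in libraries 1, 2 and 3. CDK4 thus stood 29.02-fold above CDK6, in 3 of 3 libraries (two-sided exact sign-flip test, p = 0.25, the smallest that 3 libraries allow, and 0.278 after adjustment over the 10 gene pairs compared). CDK6 has 12260 bases of exon against 3168 for CDK4, and without division by length the mean log2 ratio was 2.91. CDK2 stood 1.80-fold below CDK4 in 3 of 3 libraries, with log2 ratios of -0.92, -0.87 and -0.76. Of the summed RPKM of the 3 kinases, CDK4 made up 62.9 ± 1.18%, CDK2 34.9 ± 1.29% and CDK6 2.19 ± 0.350%. The order of the shares was the same in the 3 libraries, and that of CDK6 lay between 1.84% and 2.54%.

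RB1 (ENSG00000139687, chromosome 13, 48303726 to 48599436), whose protein holds E2F factors in check, had 117, 126 and 144 CPM (19.99 ± 2.08 RPKM). It was lowest in library 1 and highest in library 3. Its relatives of the pocket protein family were less abundant per kb. RB1 stood 4.41-fold above RBL1 (log2 ratio 2.14 ± 0.0466 SD) and 2.34-fold above RBL2 (1.23 ± 0.171), each in 3 of 3 libraries.

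CDKN1B and CDKN1C, which encode the inhibitors p27 and p57, differed widely in level, with CDKN1C the lowest of the 10 genes. CDKN1B (ENSG00000111276, chromosome 12, 12715058 to 12722371) had 112, 98.0 and 96.5 CPM (36.3 ± 2.95 RPKM) and was highest in library 1. CDKN1C (ENSG00000129757, chromosome 11, 2883213 to 2885773), an imprinted gene, had 0, 10 and 10 counts and was the only one of the 10 below detection. In libraries 2 and 3 that is 0.165 and 0.214 CPM. Per kb, CDKN1B stood at least 1591-fold above CDKN1C in library 1, with CDKN1C set at 3 counts in that library. In library 2 the ratio was 525 (exact Poisson interval at 95% confidence for the CDKN1C count, 285.5 to 1095) and in library 3 it was 398 (217 to 830). These intervals cover counting error only, and the intervals of libraries 2 and 3 overlap. Of 7 genes listed for the imprinted domain of CDKN1C and for factors that act on CDKN1B, 6 were detected. PHLDA2, an imprinted neighbour of CDKN1C, was the highest of them (126 ± 11.5 RPKM). KCNQ1OT1, the antisense RNA of the domain, was the lowest detected, with 3.50, 3.59 and 1.80 CPM, the lowest value in library 3, and it also varied most of the listed genes called. KCNQ1 had 1 count in all.

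CDKN1A, the p21 gene and the CIP/KIP member outside the 10 genes, exceeded CDKN1B 19.2-fold per kb (log2 ratio 4.02, 4.43 and 4.34 in libraries 1, 2 and 3). CDKN1A was lowest in library 1 (1968 CPM against 2297 and 2117), where CDKN1B was highest. With the union of exons as length, the level of CDKN1B was close to that of CDK2, a kinase it inhibits. The log2 ratio of CDKN1B to CDK2 was 0.22 in library 1 and -0.22 and -0.29 in libraries 2 and 3 (mean -0.10 ± 0.28 SD, two-sided exact sign-flip p = 0.75). Which of these was higher per kb of the union of exons therefore differed between library 1 and the others. With the longest transcript as length, CDK2 was above CDKN1B in each library (mean log2 ratio of CDKN1B to CDK2 -0.60).

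All 4 INK4 genes were detected. CDKN2A (ENSG00000147889, chromosome 9, 21967753 to 21995301), which encodes p16 and, in another reading frame, ARF, a stabiliser of p53, had 136, 101 and 104 CPM (26.3 ± 4.51 RPKM). Libraries 2 and 3 were close together and library 1 was above both. CDKN2B (ENSG00000147883, chromosome 9, 22002903 to 22009363), which encodes p15, had 34.6, 28.5 and 28.5 CPM (7.53 ± 0.872 RPKM) and was likewise highest in library 1. CDKN2C (ENSG00000123080, chromosome 1, 50960745 to 50974633), which encodes p18, had 62.1, 71.4 and 77.7 CPM (21.2 ± 2.37 RPKM). CDKN2D (ENSG00000129355, chromosome 19, 10566462 to 10569059), which encodes p19, had 15.8, 18.3 and 18.6 CPM (11.7 ± 1.02 RPKM). Both of these were lowest in library 1, the reverse of the chromosome 9 pair.

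Within the pairs, CDKN2A exceeded CDKN2B 3.48-fold per kb (log2 ratio 1.88, 1.74 and 1.77) and CDKN2C exceeded CDKN2D 1.81-fold (0.83, 0.82 and 0.92), each in 3 of 3 libraries. The SD of the log2 ratio was 0.0767 for the first pair and 0.0541 for the second. The summed INK4 level was 69.2, 64.1 and 66.8 RPKM in libraries 1, 2 and 3. With the longest annotated transcript as length it was 148, 124 and 128 RPKM, highest in library 1 with either length. The share of CDKN2A was 45.5% in library 1 but 36.5% and 35.9% in the other two, and that of CDKN2C 27.0% against 33.6% and 35.1%. CDK4, a target of the INK4 proteins, stood 3.31-fold above CDKN2C in 3 of 3 libraries. Against the summed INK4 level CDK4 did not stand out, at a mean of 70.0 against 66.7 RPKM. With the longest transcript as length it was lower, at 107 against 133 RPKM.

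**Figure D1:**
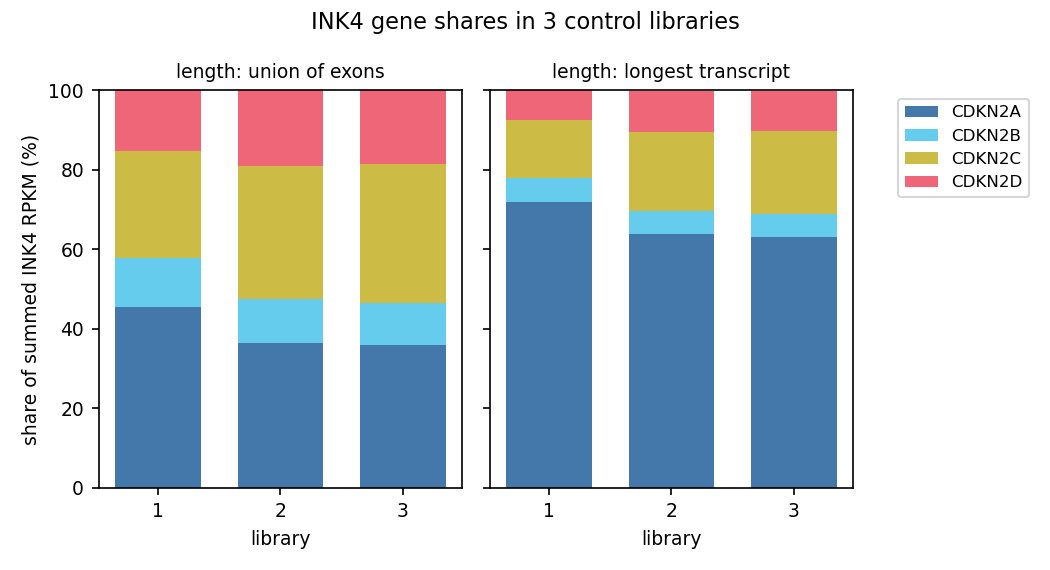
Share of each INK4 gene in the summed INK4 RPKM (vertical axis, percent) in libraries 1 to 3 (horizontal axis), with the union of exons as length on the left and the longest transcript on the right. CDKN2A takes a larger share in library 1 with both lengths, 45.5% on the left and 72.0% on the right.

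Ordered by RPKM, the genes ran CDK4, CDK2, CDKN1B, CDKN2A, CDKN2C, RB1, CDKN2D, CDKN2B, CDK6 and CDKN1C. The ranges over the 3 libraries overlapped between CDK2 and CDKN1B and between CDKN2C and RB1, so these neighbours did not differ beyond their spread, although CDKN2C was above RB1 within each of the 3 libraries. No other neighbours overlapped, but those of CDKN2A and CDKN2C all but touched. The lowest value of CDKN2A and the highest of CDKN2C were both 23.42 RPKM. Among the 11508 detected protein-coding genes, CDK4 lay at the 95.8 percentile, CDKN2A at 87.0, CDKN2B at 56.3 and CDK6 at 25.6. The median of the 9 detected members was 21.2 RPKM, against 6.09 for detected protein-coding genes.

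**Figure D2:**
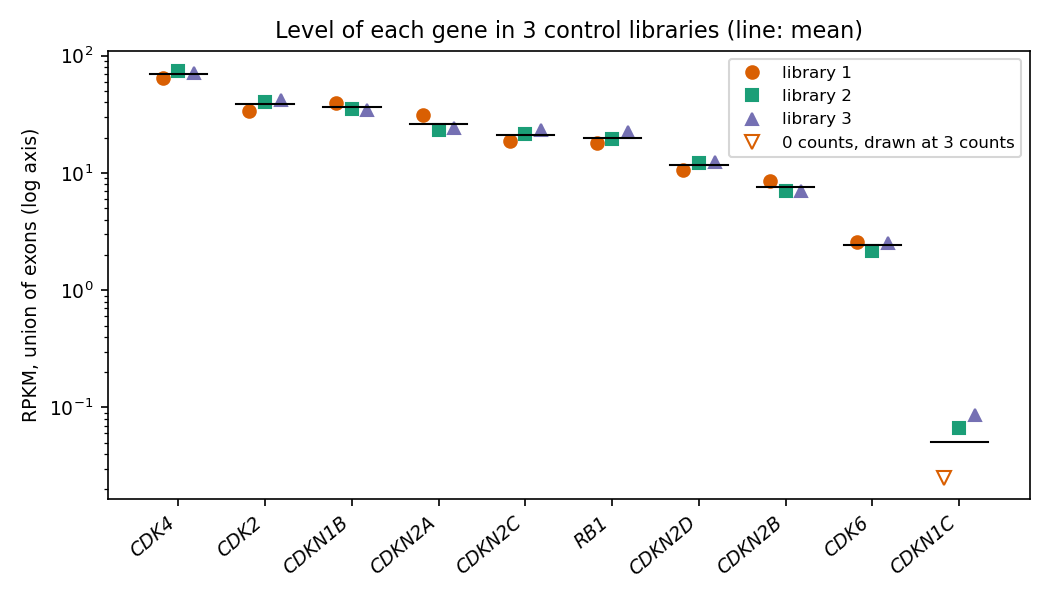
Level of each of the 10 genes (horizontal axis) in RPKM on a log axis, with 1 point per library and a line at the mean of the 3 libraries. CDK4 lies highest at 70.0 RPKM and CDKN1C lowest, with library 1, which had 0 counts, drawn as an open triangle at 3 counts.

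The place of CDKN2A depended on the length used. Its annotated exons add up to 4329 bases, but its longest annotated transcript has 1283. With the longest transcript as length, CDKN2A stood at 88.7 ± 15.2 RPKM instead of 26.3, rose to rank 2, and its range overlapped that of CDK4 (107 ± 7.45). It then exceeded CDKN2B 11.3-fold and made up 66.4 ± 4.91% of the INK4 sum, against 39.3 ± 5.37% with the union of exons. RB1 came before CDKN2C, and CDK2 and CDKN1B separated with this length (58.3 ± 6.36 against 38.4 ± 3.12 RPKM). CDKN2D, CDKN2B and CDK6 kept ranks 7, 8 and 9.

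**Figure D3:**
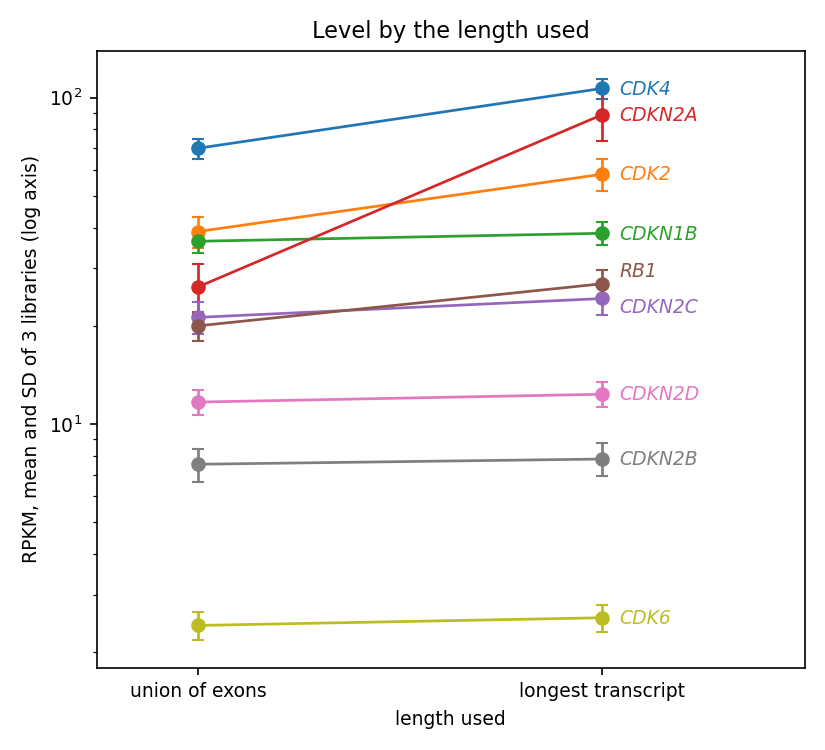
Mean RPKM of the 9 detected genes on a log axis, computed with the union of exons (left) and with the longest transcript (right); bars are the SD of 3 libraries. The line of CDKN2A is the steepest, from 26.3 to 88.7 RPKM.

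The spread of each gene over the 3 libraries was set against counting error with a chi-square test, adjusted over the 16293 genes that averaged at least 10 counts. All 9 detected members passed, but so did 68.6% of all tested genes. Calls rise with depth, and the 9 members had mean counts of 915 or more. Among genes that averaged at least 500 counts, 83% passed. The members' count is thus near the background. The ratio of the highest to the lowest CPM had a median of 1.215 over the 9 members. It was 1.246 over all tested genes and 1.205 over the tested protein-coding genes. Both backgrounds include genes with fewer counts than the members, where counting error widens the ratio.

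CDKN2A had the widest ratio, 1.35 (adjusted p = 1.51e-73, chi-square test), followed by CDKN2C at 1.25 (3.44e-18) and CDK2 at 1.24 (8.63e-38). CDK4 had the narrowest, 1.15 (4.08e-24). When a further coefficient of variation of 0.05 was allowed between libraries, CDK2, CDKN2A, CDKN2B and CDKN2C still passed (adjusted p = 0.0372, 0.000167, 0.0437 and 0.0379), 4 of 9 members against 32.7% of all tested genes and 30.4% of those averaging at least 500 counts. CDK4, CDK6, RB1, CDKN1B and CDKN2D did not. CDKN1C, with a mean count under 10 over the 3 libraries, was not tested with them. Without the filter on low counts, its 0, 10 and 10 counts passed (adjusted p = 0.0204, chi-square test), whereas between libraries 2 and 3 alone, where its mean reached 10, it did not (0.717).

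Among the 9 called members, 4 were highest in library 1 (CDKN2A, CDKN2B, CDKN1B and CDK6) and 5 were lowest there (CDK2, CDK4, RB1, CDKN2C and CDKN2D), so library 1 was at an end for each of them. It was not always the odd one out, since CDK6 was nearly equal in libraries 1 and 3, and RB1 differed more between libraries 2 and 3 than between 1 and 2. Of the 11182 genes called among all tested, 4543 were highest in library 1 and 5447 lowest there (27.9% and 33.4% of all tested genes). Library 1 was thus at an end for most called genes, as for the members. On the log2 scale, library 1 exceeded the mean of libraries 2 and 3 by 0.41 for CDKN2A, 0.28 for CDKN2B and 0.20 for CDKN1B, and lay below it by values of -0.28 for CDK2, -0.26 for CDKN2C and -0.22 for CDKN2D. Between libraries 2 and 3 alone, 5 of the 10 members passed (CDK2, CDK4, CDK6, RB1 and CDKN2C), against 28.1% of all genes tested. That share includes genes with few counts, where calls are rarer. No share at a mean count of at least 500 was computed for these libraries alone. RB1 had the smallest adjusted p of the 5 members, 6.18e-13 (chi-square test). CDKN2A and CDKN2B, at 0.388 and 0.991, did not pass, nor did CDKN1B (0.613), CDKN1C (0.717) and CDKN2D (0.831). Without library 2, CDK6 no longer passed (adjusted p = 0.714). Whether these differences between libraries came from the cells or the preparation was not tested. In bulk RNA, more cells that express a gene and more RNA per cell cannot be told apart.

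**Figure D4:**
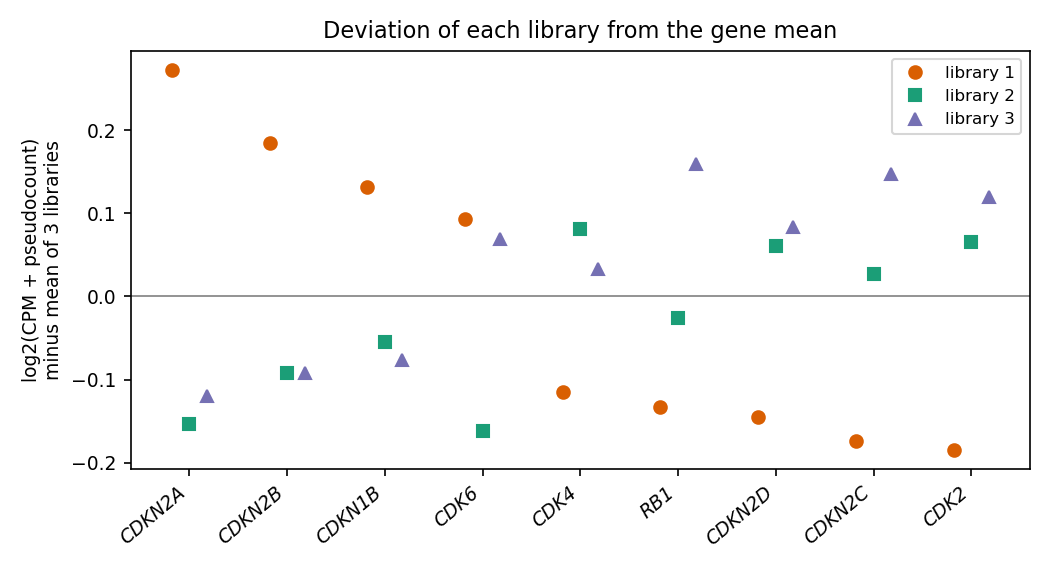
Deviation of each library from the gene's own mean in log2(CPM + 0.5) for the 9 tested genes, ordered by the value of library 1. CDKN2A, CDKN2B and CDKN1B lie above 0 only in library 1, while CDK4, RB1, CDKN2D, CDKN2C and CDK2 have their lowest point there.

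Neighbours and regulators of the INK4 genes were described next to them from a list of 15 genes, of which 14 were detected. MTAP, the metabolic enzyme gene beside CDKN2A, had 56.7, 39.8 and 47.9 CPM and was, like CDKN2A and CDKN2B, highest in library 1. DMRTA1, on the far side of CDKN2B, had 7.29, 8.18 and 8.04 CPM, and its spread did not pass (adjusted p = 0.271, chi-square test). CDKN2B-AS1, the antisense RNA known as ANRIL, was below detection with 6, 22 and 5 counts, and had the widest ratio of the called genes of the list (3.39). Of the 15 genes 12 passed the test, 4 of them highest and 6 lowest in library 1. Over all tested genes 68.6% passed, 27.9% highest and 33.4% lowest in library 1. Among those averaging at least 500 counts, 83% passed. Counts for this list and those below are to be read against these shares. ID3, which encodes an inhibitor of helix-loop-helix factors, was the most abundant per kb of exon (75.5 ± 28.2 RPKM), with 81.1, 181 and 145 CPM. CBX7, a Polycomb gene, was the least abundant detected (0.605 ± 0.174 RPKM).

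Among the D and E cyclins, 4 of 5 were detected. CCND1, which encodes cyclin D1, led with 158 ± 6.36 RPKM, and CCNE1, which encodes cyclin E1, was the lowest detected (2.45 ± 0.188). CCND2 had 0 counts in every library. CCND3 varied most, with 65.5, 98.0 and 96.8 CPM, lowest in library 1 as CDK4 was. Of the 4 tested cyclins 3 passed, 1 highest and 1 lowest in library 1. All 12 genes of the RB1 partners and the E2F arm were detected, from TFDP1, the dimer partner of E2F factors (53.7 ± 7.51 RPKM), down to E2F2 (0.439 ± 0.142), which also varied most. Of these 12, 8 passed, 3 highest and 5 lowest in library 1. For both lists the background is 68.6% of all tested genes, 27.9% highest and 33.4% lowest in library 1. It is 83% for genes averaging at least 500 counts.

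Genes that activate CDKs were detected in 8 of 8 cases. They ranged from HSP90AB1, a chaperone that with CDC37 folds CDK4 (329 ± 15.4 RPKM), down to CCNH, the cyclin of the CDK-activating kinase (4.73 ± 0.502). CDC25A, a phosphatase that activates CDK2, varied most (27.4, 32.6 and 34.3 CPM). All 8 passed, 3 highest and 4 lowest in library 1. Of 10 genes for the turnover of CDK inhibitors, all were detected, with FBXW7 lowest (4.01 ± 0.437 RPKM). CUL4B (23.1 ± 2.05) and DDB1 (23.0 ± 1.58) were highest and nearly equal, with DDB1 above CUL4B in libraries 2 and 3. With the longest transcript as length, DDB1 stood at 71.2 RPKM and CUL4B at 33.1. RBX1, the RING subunit of cullin ligases, varied most, with 23.9, 34.2 and 35.6 CPM. Of the 10 turnover genes 9 passed, 2 highest and 7 lowest in library 1. Beside these 2 lists, 68.6% of all tested genes passed, 27.9% highest and 33.4% lowest in library 1. At a mean count of at least 500 the share passing was 83%. CDKN3, a phosphatase that acts on CDKs, stood at 16.0 ± 1.48 RPKM.

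Of 15 other CDK genes 14 were detected and all 14 passed, 5 highest and 7 lowest in library 1. The shares over all tested genes were 68.6% passing, 27.9% highest and 33.4% lowest in library 1. Among genes averaging at least 500 counts, 83% passed. CDK1, the mitotic kinase, was the highest at 36.6 ± 3.78 RPKM, and CDK20 was the lowest detected (1.62 ± 0.209). With the union of exons as length, CDK1 was about level with CDK2. With the longest transcript, CDK1 stood above CDK2, at 73.8 against 58.3 RPKM. CDK18 varied most of the 14 detected (16.6, 22.0 and 19.2 CPM). CDK3, a close relative of CDK2, had 0, 15 and 13 counts and was below detection. TEN1-CDK3, on the same strand, covers 91.2% of its exons. CDK4 was thus higher per kb than each of the other kinases listed.

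The genes with the profile nearest to that of CDKN2A over the 3 libraries were CEP250, TOP1MT and OLFML3, at distances of 0.0044, 0.0053 and 0.0101 in log2 deviation. Those nearest to CDKN2C were MAP3K6, METTL7A and WDHD1, at 0.0053, 0.0062 and 0.0070. With 3 libraries such profiles are common: of 11733 protein-coding genes averaging at least 50 counts, 148 lay within 0.05 of CDKN2A and 203 within 0.05 of CDKN2C.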

How the data were processed

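RNA was measured by sequencing of poly(A) RNA in 3 control libraries. The authors deposited raw read counts for each gene. Tools named in the submitters' processing notes are featureCounts 1.6.2, STAR 2.5.2a and cutadapt 1.16, with build hg38. How strand and multiply aligned reads were treated, and which annotation was counted, is not given in the sources used here. A further 6 count columns fitted no sample label and were left out.

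All 58735 gene identifiers matched GENCODE 29 on hg38, which gave positions, exon unions and transcripts. TMM (edgeR 4.0.16, R 4.3.3) scaled the library totals. With 1 group, no test between conditions was made. The spread test was a chi-square test with 2 degrees of freedom and Benjamini-Hochberg adjustment over 16293 genes, at a threshold of 0.05, and was tested on simulated data. Pairs were compared within each library after adding 0.5 counts. Alternatives were raw totals, DESeq2 1.42.0 size factors, other filters and lengths, and leaving out a library. Named genes were the 10 members, their pair partners, the highest, lowest, undetected and most variable gene of each list, and the 3 nearest profiles of the 2 members with the widest ratio. TSPAN31 and AC025162.1 were named for their overlap with members, and DMRTA1 and MTAP for their position, chosen after values were seen. DDB1 was named for its level near that of CUL4B, and FTH1 for its overlap with BEST1, also after values were seen. OTX2, MITF, KRT8 and KRT18 were named to complete the detected identity markers, likewise after values were seen. Some items are not reported here. The members and lists were chosen with earlier results of these data known. The share of calls at a mean count of at least 500 was added after seeing the data.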

Additional observations from a re-analysis of the deposited data

How the results depend on the processing

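Scaling by raw totals or DESeq2 size factors left all 9 detected members past the chi-square test and moved no member's RPKM by more than 1 SD. Among all genes, the test called 11182, and 5322 with an extra coefficient of variation of 0.05, where 4 members passed. Leaving out 1 library at a time gave 4581 to 10016 called genes and 5 to 9 called members, the lowest of each without library 1. The cause was not tested. With the longest transcript as length, 5 members moved by more than 1 SD (CDK2, CDK4, RB1, CDKN2A and CDKN2C). Of the 60 alternative values of the 10 pairs, 59 kept their direction. The exception was CDKN1B against CDK2, whose log2 ratio turned from -0.10 to 0.0023 without library 3. Over the omissions of 1 library this ratio ran from -0.25 to 0.0023, and with the longest transcript it was -0.60. The pair of CDKN1B and CDKN1C rests on 0 to 10 counts of CDKN1C, so its size depends on the pseudocount (log2 ratio 10.25 with 0.5 counts and 11.06 with 0.1) and more on library 1, which had 0 counts: it was 8.77 without library 1, 10.89 without library 2 and 11.09 without library 3. Detection of 9 members held at 0.5 and 2 CPM. No paired analysis was possible because the labels give 1 group.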
